A study of Mus musculus with 4 samples.

Results

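Chemokine and chemokine receptor genes were described in kidneys of diabetic and nondiabetic mice with 1 or both kidneys in place. The probe sets were those whose gene symbol in the platform annotation is Ccl, Cxcl, Cx3cl, Xcl, Ccr, Cxcr, Cx3cr, Xcr or Ackr followed by a number and at most 1 letter. This gave 85 probe sets of 53 genes, of 45037 probe sets on the array that are not controls. Of these, 35 probe sets of 25 genes had a mean signal over the 4 arrays above 100, and they are the ones described in detail. They covered 18 of the 33 ligand genes and 7 of the 20 receptor genes. A further 4 probe sets carry several symbols, among them Ccl or Cxcl names, and were left out because no single gene can be named for them.

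The study set 4 groups of female FVB/NJ mice beside each other, each measured on 1 array of kidney RNA pooled from 4 animals. OVE-uni mice carried the OVE26 transgene, were diabetic and had lost 1 kidney by uninephrectomy, whereas OVE-sham mice had the same transgene and diabetes with a sham operation. FVB-uni and FVB-sham mice were nontransgenic, nondiabetic littermates that had uninephrectomy or sham surgery. Surgery took place at 2 months of age and tissue was collected 10 weeks later, at 4.5 months, from kidneys perfused with saline at harvest. A pool of 4 animals gives 1 value with no spread between animals. OVE26 mice become diabetic because a calmodulin transgene under an insulin promoter damages the pancreatic beta cells.

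Chemokines are small secreted proteins that bind heparan sulfate on cell surfaces and guide leukocytes along a gradient. They signal through G-protein-coupled receptors, while the atypical receptors (Ackr genes) take up and clear chemokines without G-protein signalling. In the injured kidney they are made by tubule cells, endothelium, fibroblasts and infiltrating leukocytes, and Ccl2 with its receptor Ccr2 is the best known axis of monocyte entry.

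Many inflammatory chemokine promoters carry binding sites for the transcription factor NF-kappaB just before the start site. The windows from 250 bases before to 50 bases after the start (RefSeq, GRCm38.p6) are shown for ligands that turn up in the results below: the neighbouring neutrophil ligands Cxcl1, Cxcl2 and Cxcl3 and the CC ligands Ccl9, Ccl6 and Ccl8. Capitals mark matches on either strand to GGGNNNTTCC, a form of the NF-kappaB site.
Cxcl1, chr5:90890995-90891294, plus strand: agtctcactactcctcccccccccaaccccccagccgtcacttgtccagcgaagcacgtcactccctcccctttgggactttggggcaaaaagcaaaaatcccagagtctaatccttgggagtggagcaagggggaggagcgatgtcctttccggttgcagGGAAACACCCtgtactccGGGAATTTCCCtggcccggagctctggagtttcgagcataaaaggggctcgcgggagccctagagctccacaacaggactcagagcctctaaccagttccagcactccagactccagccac
Cxcl2, chr5:90903649-90903948, plus strand: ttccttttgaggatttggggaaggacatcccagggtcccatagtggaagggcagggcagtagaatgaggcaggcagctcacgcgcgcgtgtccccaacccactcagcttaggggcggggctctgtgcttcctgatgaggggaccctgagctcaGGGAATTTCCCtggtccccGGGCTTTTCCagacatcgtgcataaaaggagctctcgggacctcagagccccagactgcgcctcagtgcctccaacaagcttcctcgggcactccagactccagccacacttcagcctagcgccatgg
Cxcl3, chr5:90785851-90786150, plus strand: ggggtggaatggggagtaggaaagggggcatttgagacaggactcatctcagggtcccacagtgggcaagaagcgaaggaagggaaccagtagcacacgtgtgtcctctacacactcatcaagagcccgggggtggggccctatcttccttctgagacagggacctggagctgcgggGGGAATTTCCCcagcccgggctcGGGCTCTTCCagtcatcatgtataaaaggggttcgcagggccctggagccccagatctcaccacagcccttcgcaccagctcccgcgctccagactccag
Ccl9, chr11:83578587-83578886, minus strand: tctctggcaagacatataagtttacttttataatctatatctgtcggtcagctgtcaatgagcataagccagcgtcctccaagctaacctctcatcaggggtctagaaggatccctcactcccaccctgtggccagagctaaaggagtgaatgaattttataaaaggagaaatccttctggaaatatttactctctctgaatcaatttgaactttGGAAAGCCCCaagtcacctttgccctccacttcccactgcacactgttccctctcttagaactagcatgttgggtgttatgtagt
Ccl6, chr11:83593038-83593337, minus strand: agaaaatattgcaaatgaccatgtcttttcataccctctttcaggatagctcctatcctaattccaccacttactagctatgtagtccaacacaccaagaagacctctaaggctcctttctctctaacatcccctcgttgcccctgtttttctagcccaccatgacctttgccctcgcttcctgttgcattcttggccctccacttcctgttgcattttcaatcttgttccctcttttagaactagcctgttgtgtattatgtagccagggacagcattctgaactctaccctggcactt
Ccl8, chr11:82114935-82115234, plus strand: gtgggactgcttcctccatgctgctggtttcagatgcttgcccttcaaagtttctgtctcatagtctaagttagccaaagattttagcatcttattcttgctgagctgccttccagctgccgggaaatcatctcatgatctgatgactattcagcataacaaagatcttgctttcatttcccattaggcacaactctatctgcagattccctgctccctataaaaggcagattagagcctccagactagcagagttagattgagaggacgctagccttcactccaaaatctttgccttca
Cxcl1, Cxcl2 and Cxcl3 each had 3 matches, of which 2 overlapped on opposite strands, so that 2 runs of capitals appear in each. The first match began 89 bases before the start site in Cxcl1, 97 in Cxcl2 and 73 in Cxcl3. Ccl9 had 1 match, 35 bases before the start, and the windows of Ccl6 and Ccl8 had 0. The motif was found in 5.56% of the 32851 promoters in the table. Of 40 chemokine and receptor genes with a promoter there, 9 had a match, 7 ligands and 2 receptors. Among the 19 of these with a mean signal above 100 the matches were in Cxcl1, Ccl9 and Cxcl10. Also above 100 were Ccl2, Ccl4, Ccl5, Cxcl11, Cxcl16 and Cxcl17, which had no promoter there and were not searched. A match is a description of the letters and does not show that a factor binds there.

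Signals are the deposited linear intensities, and the difference between 2 arrays is given as log2(signal + 26.4), with the 20th percentile of the whole table as the offset. Differences of dim probe sets come out smaller on this scale than the ratio of their signals, and a value of 1 is a 2-fold difference. Each group is a single array of pooled RNA, so a difference of 2 arrays stands without replicates or a p-value, and the number of arrays limits every value. Different probe sets bind with different strength, so signals are compared between arrays and not between genes. In whole tissue, more cells of a type and more RNA per cell cannot be told apart.

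The 4 arrays had the same trimmed mean signal of 500.0. The labelled tissue was borne out by 15 of 15 measured kidney tubule and podocyte markers above 100. The 20th percentile of signal was 23.3 on OVE-uni and 23.7 on FVB-sham, against 29.8 on OVE-sham and 30.1 on FVB-uni. Geometric means of 18 hybridisation spike-in probe sets followed the same split, at 0.92 (OVE-uni), 1.24 (OVE-sham) and 1.23 (FVB-uni) times the FVB-sham level. For 3 probe sets of 18S ribosomal RNA the ratios to FVB-sham were 1.88 in OVE-uni, 1.32 in OVE-sham and 1.02 in FVB-uni. Their part in the differences below was not tested.

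On the OVE-uni array 25 of the 35 chemokine and receptor probe sets had their highest signal, against 25.6% of all 23487 probe sets with a mean above 100. The corresponding numbers were 2 on OVE-sham, 3 on FVB-uni and 5 on FVB-sham, against 24.8%, 24.3% and 25.3% of all. Without the limit on the mean, 41 of all 85 were highest on OVE-uni, 15 on OVE-sham, 17 on FVB-uni and 12 on FVB-sham. The matching shares of all probe sets without the limit were not counted. A probe set can exceed the limit through 1 bright array alone, and for Ccl9, Ccl2, Ccl5, Cxcl17 and 1 probe set of Ccr2 the mean of the other 3 arrays was at or under 100, with OVE-uni the bright one in all 5. At the limit itself, 2 probe sets of Ccr2 had means of 104.75 and 99.45, and Cxcl15 had 98.07.

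**Figure D1:**
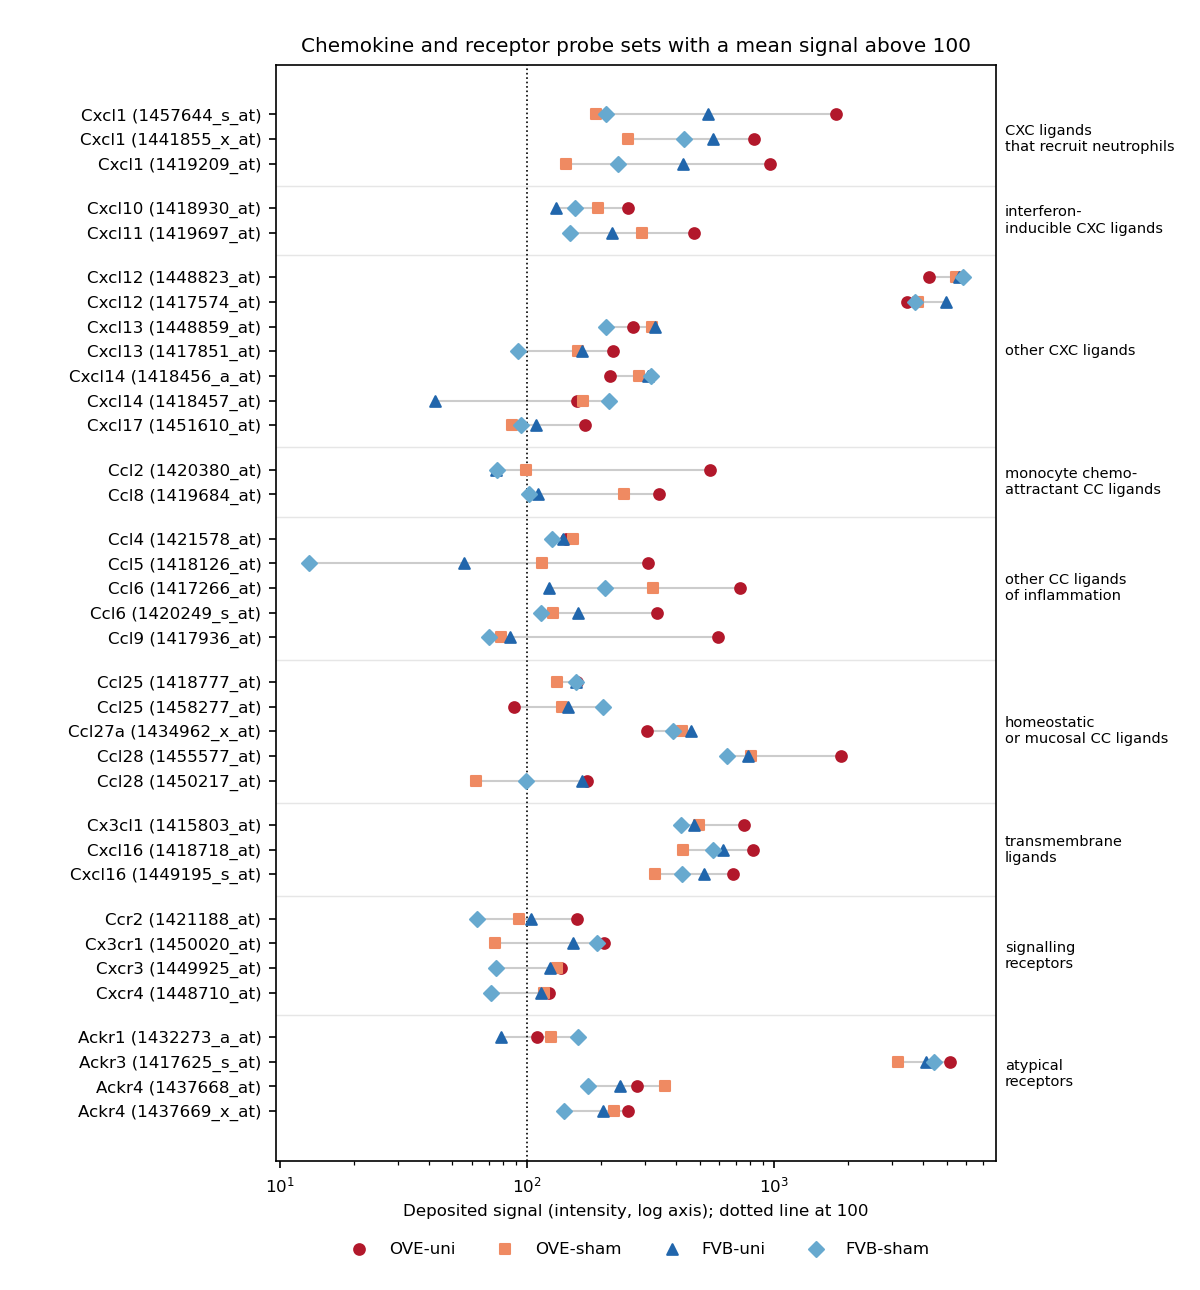
Deposited signal (log axis) of the 35 probe sets with a mean above 100, 1 row each, grouped by role, with a symbol for each of the 4 arrays and a grey line from the lowest to the highest. OVE-uni is the rightmost symbol in 25 rows, and the spread within a row is widest for Ccl5, from 13.1 to 308.

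Of 5 ligand genes that recruit neutrophils, only Cxcl1 (KC), the main neutrophil attractant of the mouse, passed the limit of 100, with 3 probe sets. Probe set 1457644_s_at gave 1789 in OVE-uni, 189.8 in OVE-sham, 542 in FVB-uni and 209 in FVB-sham kidneys. For 1419209_at the signals were 962 in OVE-uni, 144 in OVE-sham, 426 in FVB-uni and 234 in FVB-sham kidneys. The probe set 1441855_x_at, of a type that may bind related transcripts, had 833 in OVE-uni, 256 in OVE-sham, 566.5 in FVB-uni and 430.5 in FVB-sham kidneys. All 3 were highest in OVE-uni, next in FVB-uni and lowest in OVE-sham. After uninephrectomy the log2 difference lay between 1.60 and 3.07 in diabetic mice and between 0.38 and 1.27 in nondiabetic mice. Diabetes gave 0.54 to 1.68 in uninephrectomised mice and -0.69 to -0.12 in sham mice.

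The other genes of this role had means under the limit. Cxcl2 (MIP-2), a neighbour of Cxcl1 on chromosome 5 that acts on the same receptor, had 186 in OVE-uni, 45.6 in OVE-sham, 19.4 in FVB-uni and 13.6 in FVB-sham kidneys, highest in OVE-uni like Cxcl1. Cxcl3 and Cxcl5, from the same cluster, did not exceed 37.2 and 27.8 on any array. Cxcl15 ran differently, at 30.9 in OVE-uni, 81.2 in OVE-sham, 209 in FVB-uni and 71.0 in FVB-sham kidneys. Their receptor gene Cxcr2, carried mainly by neutrophils, had signals of 15.0 in OVE-uni, 34.6 in OVE-sham, 18.2 in FVB-uni and 5.6 in FVB-sham kidneys. Of 10 neutrophil markers with a probe set (Cxcr2 among them) 0 had a mean above 100, and their summed signal was 553 in OVE-uni, 641 in OVE-sham, 729 in FVB-uni and 518 in FVB-sham kidneys.

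The monocyte chemoattractants were brightest in OVE-uni kidneys. Ccl2 (MCP-1), the principal ligand of Ccr2, had 549.8 in OVE-uni, 98.9 in OVE-sham, 75.3 in FVB-uni and 76.0 in FVB-sham kidneys. It stood apart on the OVE-uni array and was similar on the other 3, with log2 differences of 2.50 between OVE-uni and FVB-uni and 0.29 between OVE-sham and FVB-sham. Ccl8, which in mice acts on Ccr8, followed diabetes in both arms, with 342 in OVE-uni and 246 in OVE-sham against 111 in FVB-uni and 102 in FVB-sham kidneys. Both diabetic arrays lay above both nondiabetic ones, by log2 1.42 after uninephrectomy and 1.09 in sham mice. Ccl12 (MCP-5), below the limit on the mean, had 263 in OVE-uni, 13.0 in OVE-sham, 34.9 in FVB-uni and 6.9 in FVB-sham kidneys. Ccl7 (MCP-3) was dim, with 50 in OVE-uni, 2.2 in OVE-sham, 31.1 in FVB-uni and 12.1 in FVB-sham kidneys. Ccl2, Ccl7, Ccl12 and Ccl8 lie in 1 cluster on chromosome 11, together with Ccl11 and Ccl1 (RefSeq).

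A second group of CC genes on chromosome 11 holds Ccl5, Ccl9, Ccl6, Ccl3 and Ccl4. Ccl5 (RANTES), which attracts T cells and monocytes, had 308 in OVE-uni, 115 in OVE-sham, 55.9 in FVB-uni and 13.1 in FVB-sham kidneys. Both factors went with a higher signal of Ccl5 in both of their arms: diabetes by log2 2.02 after uninephrectomy and 1.84 in sham mice, uninephrectomy by 1.24 in diabetic and 1.06 in nondiabetic mice. Its nondiabetic signals are those of a dim probe set, and its uninephrectomy difference in nondiabetic mice was 0.58 with a larger offset, the 40th percentile of all values. Ccl6 and Ccl9 are myeloid chemokines of rodents that act through Ccr1. Ccl6 (1417266_at) had 729 in OVE-uni, 323 in OVE-sham, 123 in FVB-uni and 207 in FVB-sham kidneys, and its probe set 1420249_s_at had 336 in OVE-uni, 128 in OVE-sham, 162 in FVB-uni and 114 in FVB-sham kidneys. The probe sets of Ccl6 shared their order for diabetes, with differences of 2.34 and 0.95 after uninephrectomy and of 0.58 and 0.13 in sham mice, but not for uninephrectomy in nondiabetic mice (-0.64 and 0.42). Ccl9 (1417936_at) had 594.5 in OVE-uni, 78.5 in OVE-sham, 85.4 in FVB-uni and 70.5 in FVB-sham kidneys. Like Ccl2, it stood apart on OVE-uni, and so did its probe set 1448898_at, below the limit, with 222 in OVE-uni, 48.4 in OVE-sham, 7.2 in FVB-uni and 39.2 in FVB-sham kidneys. In contrast, Ccl4 (MIP-1 beta) stayed between 127 and 153.5, and Ccl3 (MIP-1 alpha) did not exceed 27.9. Ccl20, the ligand of Ccr6, is encoded elsewhere and had 149 in OVE-uni, 4.0 in OVE-sham, 14.4 in FVB-uni and 16.1 in FVB-sham kidneys. The dendritic cell chemokine gene Ccl17 had 145 in OVE-uni, 62.4 in OVE-sham, 84.9 in FVB-uni and 8.9 in FVB-sham kidneys.

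Among interferon-inducible CXC ligands, which attract T cells and NK cells through Cxcr3, Cxcl11 (1419697_at) had 474 in OVE-uni, 293.5 in OVE-sham, 222 in FVB-uni and 149 in FVB-sham kidneys. It was higher on both diabetic arrays, by log2 1.01 after uninephrectomy and 0.86 in sham mice, although Cxcl11 is known to carry an early stop in some mouse strains. The Cxcl11 probe set 1419698_at, below the limit, had 58.4 in OVE-uni, 70.5 in OVE-sham, 49.6 in FVB-uni and 22.1 in FVB-sham kidneys. There the diabetes difference was only 0.158 after uninephrectomy and 0.999 in sham mice. Cxcl10 (IP-10) had 257 in OVE-uni, 193.5 in OVE-sham, 131 in FVB-uni and 156 in FVB-sham kidneys, and its 4 differences stayed under 2-fold. Cxcl9 did not exceed 89.0, its value in FVB-sham.

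The transmembrane ligands can be shed from tubule and endothelial cells by ADAM proteases. Cxcl16 had 820.4 in OVE-uni, 428 in OVE-sham, 621 in FVB-uni and 569 in FVB-sham kidneys, and its probe set 1449195_s_at had 685 in OVE-uni, 328.5 in OVE-sham, 521 in FVB-uni and 425 in FVB-sham kidneys. Both probe sets had the order of Cxcl1, highest in OVE-uni and lowest in OVE-sham, with differences of 0.90 and 1.0 for OVE-uni against OVE-sham. Cx3cl1 (fractalkine, 1415803_at) had 754 in OVE-uni, 498 in OVE-sham, 472 in FVB-uni and 421 in FVB-sham kidneys, within 2-fold throughout. Its probe set 1415804_at lay below the limit and is described in the closing section.

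Homeostatic ligands are those made without inflammation. For Ccl28, a mucosal ligand of Ccr10 and Ccr3, probe set 1455577_at had 1859 in OVE-uni, 803 in OVE-sham, 787 in FVB-uni and 647 in FVB-sham kidneys. OVE-uni stood apart by log2 1.21 from FVB-uni and 1.18 from OVE-sham. A probe set of Ccl28 nearer the limit, 1450217_at, had 174 in OVE-uni, 62.2 in OVE-sham, 167 in FVB-uni and 99.3 in FVB-sham kidneys, so that it gave the same difference with uninephrectomy in diabetic mice (1.18) but only 0.05 between OVE-uni and FVB-uni. The Ccl28 probe set 1450218_at, below the limit, had 116 in OVE-uni, 51.1 in OVE-sham, 21.1 in FVB-uni and 14.9 in FVB-sham kidneys. Its differences were 1.59 between OVE-uni and FVB-uni and 0.88 between OVE-uni and OVE-sham. Cxcl12 (SDF-1), which holds blood progenitors and lymphocytes through Cxcr4, had 4238 in OVE-uni, 5443 in OVE-sham, 5581 in FVB-uni and 5829.6 in FVB-sham kidneys. For its probe set 1417574_at the signals were 3449 in OVE-uni, 3830.0 in OVE-sham, 4973.5 in FVB-uni and 3725 in FVB-sham kidneys. Both of these Cxcl12 probe sets were lowest in OVE-uni, by less than 2-fold, while the dim 1439084_at, with a mean of 17.67, was highest there. The B cell attractant Cxcl13 had 269 in OVE-uni, 319.7 in OVE-sham, 331 in FVB-uni and 208 in FVB-sham kidneys at 1448859_at, and 222 in OVE-uni, 160.3 in OVE-sham, 167 in FVB-uni and 92.0 in FVB-sham kidneys at 1417851_at. Both were lowest in FVB-sham and stayed under 2-fold in the 4 comparisons made. Ccl27a, a skin ligand of Ccr10, had 304.9 in OVE-uni, 424 in OVE-sham, 460.4 in FVB-uni and 389 in FVB-sham kidneys, within 2-fold throughout. Ccl25, the thymus and gut ligand of Ccr9, and Cxcl17, a mucosal chemokine, were likewise within 2-fold in all 4 comparisons.

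The probe sets of Cxcl14, a chemokine of epithelia, disagreed. With 1418456_a_at the signals were 217 in OVE-uni, 283 in OVE-sham, 309 in FVB-uni and 319 in FVB-sham kidneys, and with 1418457_at they were 160.0 in OVE-uni, 169 in OVE-sham, 42.3 in FVB-uni and 214 in FVB-sham kidneys. Only the second was past 2-fold, in both comparisons that use the FVB-uni array (1.44 for OVE-uni against FVB-uni, -1.81 for FVB-uni against FVB-sham), where the first gave -0.46 and -0.04.

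Most receptors lay below the limit. Of 16 signalling receptor genes 4 had a probe set above the limit, with means of at most 156, and the table holds no detection calls for them. Ccr2, the receptor of Ccl2 on inflammatory monocytes, had 159.7 in OVE-uni, 92.8 in OVE-sham, 104 in FVB-uni and 62.8 in FVB-sham kidneys at 1421188_at, and 161 in OVE-uni, 65.4 in OVE-sham, 107.5 in FVB-uni and 63.9 in FVB-sham kidneys at 1421186_at. Both of these probe sets were highest in OVE-uni and next in FVB-uni. Of the dimmer Ccr2 probe sets, 1421187_at had the same order, while 1460067_at, with a mean of 17.85, was highest in OVE-sham. Cx3cr1, the receptor of Cx3cl1 on resident macrophages and patrolling monocytes, had 206 in OVE-uni, 74.0 in OVE-sham, 154 in FVB-uni and 191 in FVB-sham kidneys. Here OVE-sham stood apart as the low array, by log2 -1.12 from FVB-sham, while OVE-uni was 1.21 above OVE-sham. Cxcr3, the receptor of Cxcl10 and Cxcl11, had 137 in OVE-uni, 132 in OVE-sham, 124.5 in FVB-uni and 75.2 in FVB-sham kidneys, and Cxcr4, the receptor of Cxcl12, had 123 in OVE-uni, 117.5 in OVE-sham, 114 in FVB-uni and 71.5 in FVB-sham kidneys. Both were lowest in FVB-sham and differed by less than 2-fold. Ccr1, the receptor of Ccl6 and Ccl9, lay below the limit, at 123 in OVE-uni, 51.1 in OVE-sham, 45.2 in FVB-uni and 46.4 in FVB-sham kidneys (1419609_at). The receptors of Cxcl16 (Cxcr6) and Ccl20 (Ccr6) had means of 92.6 each at their brightest probe sets, and that of Ccl28 (Ccr10) had 48.95.

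Of the atypical receptors, Ackr3 (CXCR7), which clears Cxcl12 and Cxcl11, had 5128 in OVE-uni, 3173 in OVE-sham, 4138 in FVB-uni and 4454 in FVB-sham kidneys. It was again highest in OVE-uni and lowest in OVE-sham, within 2-fold. Ackr4, which clears Ccl19, Ccl21 and Ccl25, had 279 in OVE-uni, 360.5 in OVE-sham, 238 in FVB-uni and 176 in FVB-sham kidneys at 1437668_at, and 256 in OVE-uni, 224 in OVE-sham, 203 in FVB-uni and 141 in FVB-sham kidneys at 1437669_x_at. On both probe sets the diabetic arrays lay above the nondiabetic ones, by log2 0.21 and 0.30 after uninephrectomy and 0.94 and 0.58 in sham mice. Ackr1, the Duffy antigen of venules and red cells, had 109.5 in OVE-uni, 125 in OVE-sham, 78.9 in FVB-uni and 160.5 in FVB-sham kidneys, and Ackr2, the scavenger of inflammatory CC ligands, had no probe set above the limit.

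**Figure D2:**
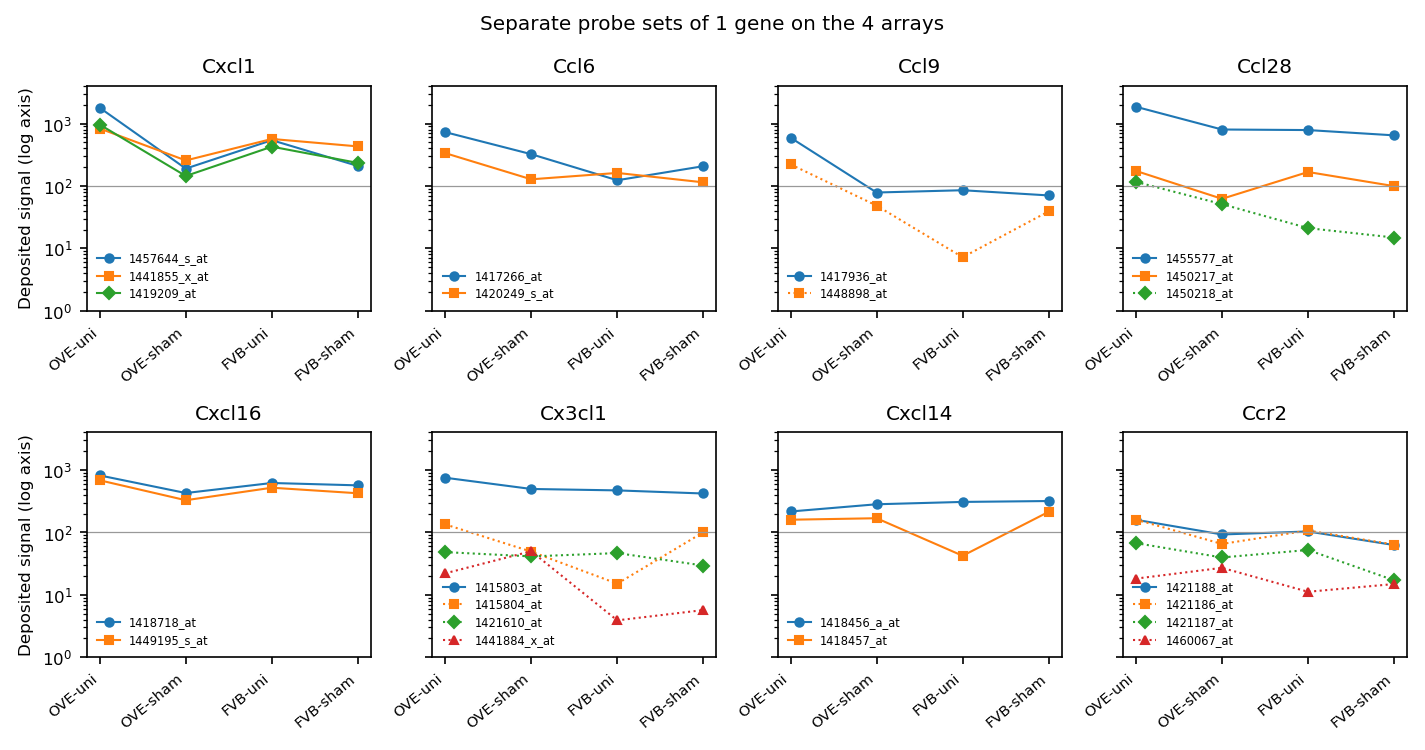
Deposited signal (log axis) on the 4 arrays for each probe set of 8 genes, with solid lines for probe sets with a mean above 100, dotted lines for the others and a grey line at 100. The 3 probe sets of Cxcl1 and the 2 of Cxcl16 follow 1 order, while the 2 of Cxcl14 part on the FVB-uni array (309 and 42.3).

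Diabetes was counted first in uninephrectomised mice. Between OVE-uni and FVB-uni, 10 of the 35 probe sets, of 9 genes, stood 2-fold or more above and 0 below, against 1.95% higher and 1.59% lower of all 23487 probe sets above a mean of 100. The genes were Ccl2, Ccl9, Ccl6, Ccl5, Cxcl1, Cxcl14, Ccl8, Ccl28 and Cxcl11, and all are ligands. Of these, Ccl2, Ccl9 and Ccl5 are above the limit only through their OVE-uni signal, so the filter itself favours their being counted here. The filter bears on the median of the 35 too, and not on the counts over all 85. Over all 85 probe sets 19 were higher and 4 lower, against 3.51% and 6.05% of all 45037. In sham mice, between OVE-sham and FVB-sham, 2 of the 35 were at least 2-fold higher (Ccl5 and Ccl8) and Cx3cr1 was lower, against 1.2% and 0.822% of all, and over the 85 probe sets 6 were higher and 1 lower, against 5.44% and 2.96%. The median difference of the 35 was 0.38 after uninephrectomy and 0.12 in sham mice, against -0.02 and 0.00 for all. The split of all probe sets into higher and lower depends on scaling: it was 459 to 374 after uninephrectomy and 282 to 193 in sham mice, and 639 to 250 and 221 to 267 with arrays centred on their medians.

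Surgery was counted in the same way, and its comparisons use the same 4 arrays as those of diabetes. Between OVE-uni and OVE-sham 12 of the 35, of 8 genes, stood 2-fold or more above and 0 below, against 1.42% and 1.07% of all. They were all 3 probe sets of Cxcl1, those of Ccl9 and Ccl2, both of Ccl6, both of Ccl28 above the limit, 1 of Cxcl16 and those of Ccl5 and Cx3cr1. Here too Ccl9, Ccl2 and Ccl5 are above the limit only through OVE-uni, so the filter favours their being counted. Over all 85, 20 were higher and 4 lower, against 3.36% and 5.56%. In nondiabetic mice, between FVB-uni and FVB-sham, 2 were higher (Cxcl1 at 1457644_s_at and Ccl5) and Cxcl14 at 1418457_at was lower, against 1.2% and 0.839%, and over the 85 probe sets 6 were higher and 4 lower, against 5.67% and 2.76%. The median difference of the 35 was 0.57 in diabetic and 0.23 in nondiabetic mice, against -0.02 and 0.00 for all. All probe sets split 333 to 251 in diabetic and 283 to 197 in nondiabetic mice, and 417 to 192 and 174 to 287 with median centring.

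**Figure D3:**
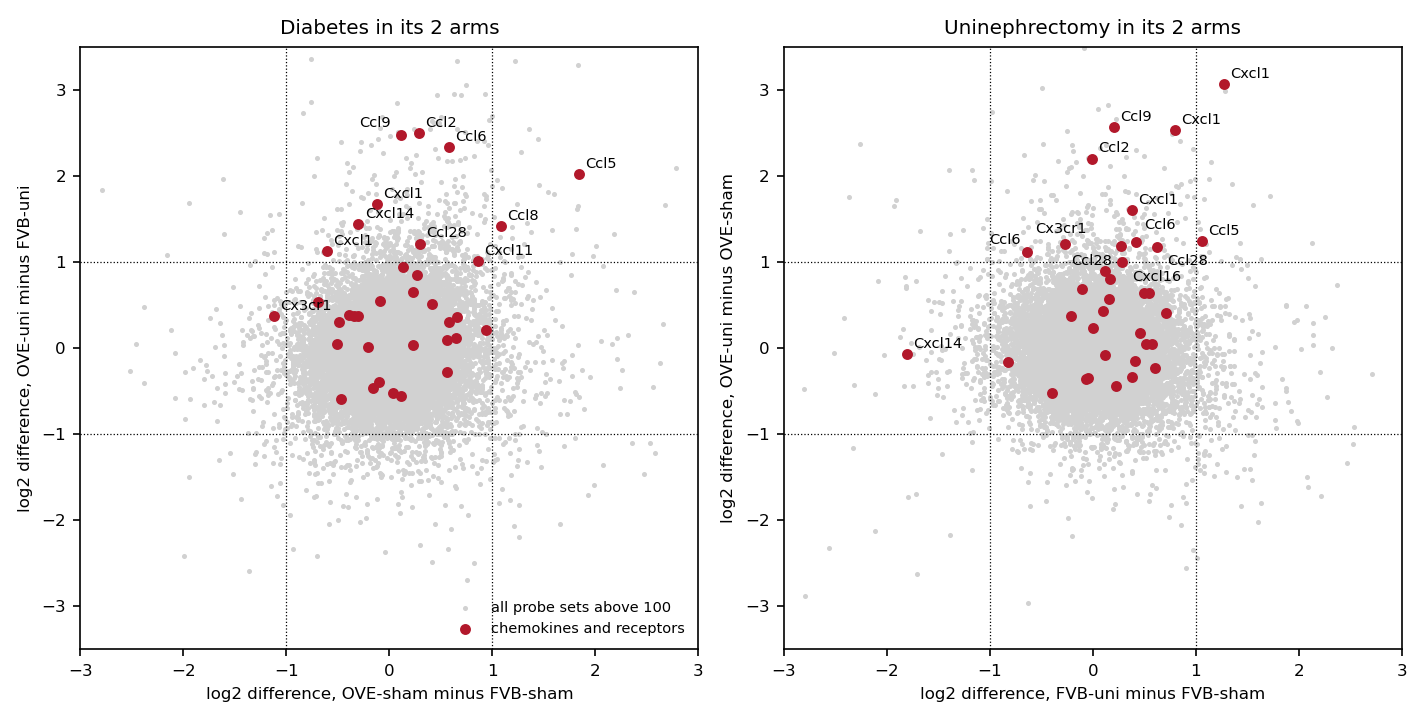
Each point is a probe set with a mean above 100, with its log2 difference in 1 arm of a factor on the horizontal axis (sham mice for diabetes, left; nondiabetic mice for uninephrectomy, right) and in the other arm on the vertical axis; red marks the 35 chemokine and receptor probe sets, dotted lines are 2-fold and 7 (left) and 3 (right) probe sets lie outside the axes. Ccl5 and Ccl8 are past 2-fold in both arms of diabetes, and Ccl5 and 1 probe set of Cxcl1 in both arms of uninephrectomy.

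The 2 by 2 design allowed 1 test across the arms, an additive limma model with diabetes and surgery as terms, fitted over all 23487 probe sets with Benjamini-Hochberg adjustment. Cxcl1 at 1457644_s_at was higher with surgery by a log2 coefficient of 2.17 ± 0.32 (limma SE, adjusted p = 0.0275, higher in 2 of 2 arms). Its arms were unlike, with 3.07 in diabetic and 1.27 in nondiabetic mice. This probe set was the 1 of the chemokine system to pass, where 0.0383% of all rose with surgery and 0.0255% fell. The other Cxcl1 probe sets had coefficients of 1.67 (limma adjusted p = 0.121) and 0.99 (0.484), and did not pass. For surgery 13 of the 35 had an unadjusted limma p below 0.05, 12 of them higher, against 4.73% of all. For diabetes 0 of the 35 passed, against 0.192% of all that rose and 0.119% that fell, while 10 had an unadjusted p below 0.05, against 7.63% of all. Probe sets of the same gene were counted separately, and some count for both factors. Among these are Ccl2 and Ccl9, which stood apart on the OVE-uni array alone. The lowest adjusted p for diabetes were those of Ccl5 (coefficient 1.93 ± 0.40, limma adjusted p = 0.0672), Ccl8 (1.25 ± 0.28, 0.0951), Ccl6 at 1417266_at (1.46 ± 0.33, 0.0965) and Cxcl11 (0.94 ± 0.24, 0.158). Of these, Ccl5 is above the limit only through OVE-uni. Each probe set leaves 1 residual degree of freedom, so the error comes nearly all from other probe sets of like signal, and a difference of effects between arms counts as error. Without the trend in limma's prior variance 0 of all probe sets passed for either factor, while 1580 had an unadjusted p below 0.05 for diabetes and 1060 for surgery.

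Genes around the chemokine system were taken from lists of textbook genes, each gene by its brightest probe set. Over all 11531 genes above 100, taken in the same way, 2.49% were at least 2-fold higher and 1.34% lower in OVE-uni against FVB-uni, and 1.06% and 0.642% in OVE-sham against FVB-sham. Between OVE-uni and OVE-sham these shares were 1.72% and 0.876%, and between FVB-uni and FVB-sham 0.937% and 0.754%. Of 27 chemokine receptor signalling genes above 100, such as the G-protein subunits, Rac2 and the arrestins, 0 were past 2-fold in any comparison, with medians of 0.03, 0.07, 0.02 and 0.06 for OVE-uni against FVB-uni, OVE-sham against FVB-sham, OVE-uni against OVE-sham and FVB-uni against FVB-sham. Among 25 inducers and NF-kappaB genes 4 passed 2-fold upwards in OVE-uni against FVB-uni (median 0.18) and 1 in OVE-sham against FVB-sham (0.08). Among the 4 was the stress factor gene Atf3, with 459.5 in OVE-uni, 151 in OVE-sham, 116 in FVB-uni and 132 in FVB-sham kidneys. Cebpd, an acute-phase transcription factor gene, rose with diabetes by 1.03 ± 0.19 (limma adjusted p = 0.0439, higher in 2 of 2 arms). Among 18 leukocyte adhesion and presentation genes 2 passed 2-fold upwards in OVE-uni against FVB-uni (median 0.19). One was Vcam1, the endothelial and tubular ligand of integrin alpha 4, with 2041 in OVE-uni, 375 in OVE-sham, 438 in FVB-uni and 507 in FVB-sham kidneys. The other was the hyaluronan receptor gene Cd44, with 502 in OVE-uni, 117 in OVE-sham, 99.8 in FVB-uni and 45.9 in FVB-sham kidneys. Of 5 chemokine-related genes, with Cxcl17 among them, 0 were past 2-fold, and the platelet chemokine gene Pf4 had 437 in OVE-uni, 235 in OVE-sham, 222 in FVB-uni and 263 in FVB-sham kidneys.

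Of the lists of leukocyte markers, only that of macrophages and monocytes had several members above 100 that were past 2-fold. The other lists had at most 2 members above 100 each, so they had little room to show several. Of its 20 genes 16 were above 100, and the summed signal of the 19 measured was 28382 in OVE-uni, 12402 in OVE-sham, 10897 in FVB-uni and 11721 in FVB-sham kidneys. At least 2-fold higher were 5 in OVE-uni against FVB-uni (2.49% of all genes) and 8 in OVE-uni against OVE-sham (1.72%), with medians of 0.76 and 0.93, while 0 were past 2-fold in the other comparisons. Much of the sum came from the lysozyme genes: Lyz2 had 5043 in OVE-uni, 1011 in OVE-sham, 635 in FVB-uni and 727 in FVB-sham kidneys, and Lyz1, a near-identical copy whose probes may share transcripts with it, rose with diabetes by 1.82 ± 0.34 (limma adjusted p = 0.0442). Without both, an alternative chosen after seeing the data, the sums of the other 17 were 12792 in OVE-uni, 9129 in OVE-sham, 8914 in FVB-uni and 9603 in FVB-sham kidneys, and 3 genes were at least 2-fold higher in OVE-uni against FVB-uni and 6 in OVE-uni against OVE-sham, with medians of 0.74 and 0.77. On each array the largest single part of that sum was the signal of Csf1r, given below, so the sum mostly follows that gene. Besides the lysozyme genes, the largest differences among members above 100 were those of Cd14 and Ms4a7. Cd14 had 1463 in OVE-uni, 344 in OVE-sham, 278 in FVB-uni and 424 in FVB-sham kidneys. Ms4a7 had 434 in OVE-uni, 168 in OVE-sham, 139 in FVB-uni and 105 in FVB-sham kidneys. Members did not share 1 order: Csf1r, the receptor of the macrophage growth factor, had 5182 in OVE-uni, 5928.5 in OVE-sham, 5093 in FVB-uni and 6558 in FVB-sham kidneys, and the Fc receptor gene Fcgr1 had 123 in OVE-uni, 152 in OVE-sham, 221 in FVB-uni and 167 in FVB-sham kidneys. The defining macrophage gene Adgre1 (F4/80) had 364 in OVE-uni, 226 in OVE-sham, 348.5 in FVB-uni and 204 in FVB-sham kidneys. Of 16 measured T and NK cell markers 2 were above 100 and 0 of them past 2-fold, with sums of 767 in OVE-uni, 707 in OVE-sham, 983 in FVB-uni and 752 in FVB-sham kidneys; Cd3e did not exceed 28.4. Of 9 B and plasma cell markers 2 were above 100, with sums of 3565 in OVE-uni, 1218.5 in OVE-sham, 2679.7 in FVB-uni and 1732 in FVB-sham kidneys. Jchain, of antibody-secreting cells, had 2699.9 in OVE-uni, 486 in OVE-sham, 1591 in FVB-uni and 874 in FVB-sham kidneys and was past 2-fold between OVE-uni and OVE-sham. Dendritic cell markers summed to 831 in OVE-uni, 764 in OVE-sham, 791 in FVB-uni and 688 in FVB-sham kidneys, with 2 of 9 above 100 and 0 of them past 2-fold.

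Lists of kidney cells and of injury were taken in the same way. Of 9 proximal tubule injury markers above 100, 6 were at least 2-fold higher in OVE-uni than in FVB-uni (2.49% of all genes) and 2 in OVE-sham than in FVB-sham (1.06%), with medians of 2.07 and 0.53, and the sum of the 11 measured was 41447 in OVE-uni, 18879 in OVE-sham, 17805.5 in FVB-uni and 13754 in FVB-sham kidneys. Of 12 fibroblast and pericyte markers 7 were higher in OVE-uni than in FVB-uni, with a median of 1.04 and sums of 30912 in OVE-uni, 18258 in OVE-sham, 12998 in FVB-uni and 13283 in FVB-sham kidneys. The 15 tubule and podocyte markers had a median of -0.42 between OVE-uni and FVB-uni, with 1 at least 2-fold higher and 2 lower. The 10 endothelial markers above 100 had a median of -0.10, with 0 higher and 1 lower. Adipocyte markers followed another order, with sums of 23463 in OVE-uni, 40522 in OVE-sham, 19626 in FVB-uni and 34396 in FVB-sham kidneys. The part of these cells in the chemokine differences was not tested.

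**Figure D4:**
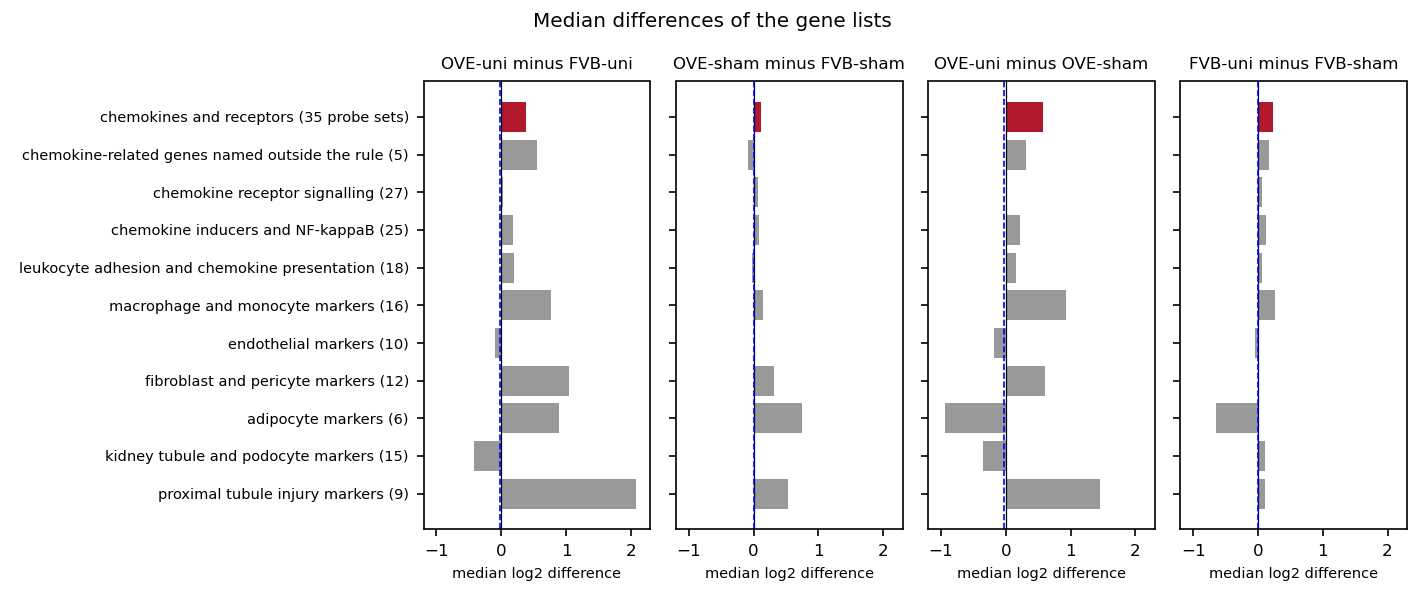
Median log2 difference of the 35 chemokine and receptor probe sets (red) and of the gene lists with at least 5 members above 100 (grey, number of genes in brackets), in the 4 comparisons of 2 arrays; the dashed line is the median of all probe sets above 100. The chemokine median is 0.38, 0.12, 0.57 and 0.23 from left to right, and that of macrophage markers 0.76, 0.15, 0.93 and 0.27.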

How the data were processed

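Total RNA of frozen kidney was extracted with TriZol, pooled by group and biotin-labelled (3' IVT Express), per the labels' protocols. The deposited table holds linear intensity values, 1 per probe set, scaled by the authors to a common trimmed mean (500.0 on each array, judged from the values). The software used is not given in the sources used here, and neither is any background correction. Symbols came from the platform annotation, which gave 1 symbol for 34945 probe sets, several for 932 and none for 9160, and the symbols of all 85 chemokine and receptor probe sets were those of RefSeq.

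Differences were taken on log2(intensity + 26.4), with 2-fold as the threshold, and limma 3.58.1 (R 4.3.3) gave an additive model with a trended prior variance and 12.4 prior degrees of freedom over 23487 probe sets with a mean above 100, at an adjusted p below 0.05. In simulated data of that size it recovered, for diabetes, 72% of 100 probe sets changed by 1 (log2). Of 100 changed by 2 it recovered 100%, and the 190 calls included 18 unchanged probe sets. The simulation gave each probe set the smoothed variance at its mean signal and the same change in both arms, unlike Ccl2 or Ccl9 above. Whether these rates hold for the deposited signals was not tested.

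Named were the members past 2-fold, passing limma or among the 6 highest means, their ligands or receptors, and up to 4 genes of a list with the largest differences. Adgre1, Cd3e, Csf1r and Fcgr1 were named after their values were seen. Members, motif and lists were chosen with earlier results of these data known. Alternatives were other offsets, quantile and median scaling, other filters, 1 value a gene, a 1.5-fold threshold and other limma settings.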

Additional observations from a re-analysis of the deposited data

Results flagged for a closer look

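The Cx3cl1 probe set 1415804_at, below the limit on the mean, differed past 2-fold in opposite directions in the 2 arms of uninephrectomy. Its signals were 134.8 in OVE-uni, 49.3 in OVE-sham, 15.1 in FVB-uni and 100.7 in FVB-sham kidneys, which gave log2 differences of 1.09 for OVE-uni against OVE-sham and -1.61 for FVB-uni against FVB-sham. The difference between the arms was not tested, as 1 array a group leaves no error for it, and the Cx3cl1 probe set 1415803_at, above the limit, gave 0.57 and 0.16.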

How the results depend on the processing

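Of 28 differences past 2-fold among the 35 probe sets, each taken under 2 other offsets and 2 other scalings, 101 of 112 values stayed past 2-fold, 11 fell under it in the same direction and 0 reversed. The counts below are of chemokine and receptor probe sets. Of OVE-uni against FVB-uni, 10 were higher and 0 lower, against 19 and 4 without a filter and 1 lower at 1.5-fold. Of OVE-sham against FVB-sham, 2 were higher and 1 lower, against 6 higher without a filter, 1 and 0 with an offset at the 40th percentile or a mean above 200, 1 higher with median centring, and 6 and 3 at 1.5-fold. Of OVE-uni against OVE-sham, 12 were higher and 0 lower, against 20 and 4 without a filter, and 7 higher with a mean above 200 or 1 value a gene by either rule. Of FVB-uni against FVB-sham, 2 were higher and 1 lower, against 6 and 4 without a filter, 1 and 0 with a mean above 200 or probe sets averaged by gene, 1 higher with the 40th percentile, quantile or median scaling, 2 lower with an offset of 1, 0 lower with a gene's brightest probe set, and 6 and 3 at 1.5-fold. Filters, 1 value a gene and fold thresholds change the counts by construction, and for offset and scaling the cause was not tested. With limma 0 rose with diabetes, against 1 with the 40th percentile, 5 with quantile scaling, 3 with median centring, 2 with a mean above 200, 4 with a gene's brightest probe set and 3 at an adjusted p below 0.1. With surgery 1 rose, against 3 with quantile scaling, 2 with median centring or a mean above 200, and 0 without a filter, with probe sets averaged by gene, without a trend or with 1 term. The adjusted p of Cxcl1 (1457644_s_at) ranged over the alternatives from 2.72e-06 to 1. Over all probe sets 73 passed with diabetes and 15 with surgery, against 0 to 337 and 0 to 67. Median centring moved the median difference above 100 to 0.10 for OVE-uni against FVB-uni and to -0.13 for FVB-uni against FVB-sham. No paired analysis was possible because each group has 1 array and the labels number no replicates. Dim probe sets, such as most receptors, have no detection calls here.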
